A study of Mus musculus with 10 samples.

Results

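Collagen chains other than those of collagen VI were followed in brown adipose tissue of mice on regular chow or a high-fat diet. A row of the deposited gene table was taken as a member when its symbol was that of a collagen alpha chain outside collagen VI, which gave 38 of 32889 genes. Of these, 11 were fibrillar chains, 8 were basement membrane chains (collagens IV, XV and XVIII) and 19 were other collagens, of which 9 were fibril-associated (FACIT) chains, 6 were network, anchoring or similar chains and 4 were transmembrane chains. All animals were wild-type C57BL/6J mice, and total RNA of brown adipose tissue was sequenced in 10 libraries. Control libraries (n = 4, labelled ND1 to ND4) came from regular chow, obesity-prone libraries (n = 3, HFDhigh1 to HFDhigh3) and obesity-resistant libraries (n = 3, HFDlow1 to HFDlow3) from a high-fat diet. The age and sex of the animals, the length of the diet and the way prone and resistant mice were told apart are not given in the sources used here. Whether each library stands for its own animal is not stated in the labels, and p-values here describe the spread among the samples sequenced, which may be technical.

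Collagens are extracellular proteins whose alpha chains wind into a triple helix. Fibrillar collagens (I, II, III, V, XI, XXIV and XXVII) assemble into the fibrils that give tissue its tensile strength, and in adipose tissue they are made mainly by fibroblasts and progenitor cells. Basement membrane collagens form or tether the thin sheets around vessels and around each adipocyte, FACIT collagens decorate fibrils, and transmembrane collagens sit in the cell surface.

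Promoter windows are shown for the called chains that have an entry (Col18a1 and Col23a1) and for the 2 highest fibrillar chains by level that have one (Col3a1 and Col1a2), because the results below turn on these genes. Each is the 250 bases before an annotated start, 5′ to 3′ on the strand of the gene, from RefSeq for GRCm38.p6. Capitals mark matches on either strand to one of 3 motifs. The first is the CCAAT box, spelled CCAAT, which reads ATTGG on the opposite strand. The second is the TATA box, spelled TATAAA, which reads TTTATA on the opposite strand. The third is the GC box, spelled GGGCGG, which reads CCGCCC on the opposite strand. Matches to different motifs may share bases, which none does in the windows shown.
Col18a1, downstream start, chr10:77113706-77113955, minus strand: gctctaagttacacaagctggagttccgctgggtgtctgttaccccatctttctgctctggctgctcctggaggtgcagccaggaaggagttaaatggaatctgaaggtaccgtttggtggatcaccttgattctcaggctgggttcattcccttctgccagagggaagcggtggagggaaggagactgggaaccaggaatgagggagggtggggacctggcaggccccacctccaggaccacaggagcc
Col18a1, upstream start, chr10:77166531-77166780, minus strand: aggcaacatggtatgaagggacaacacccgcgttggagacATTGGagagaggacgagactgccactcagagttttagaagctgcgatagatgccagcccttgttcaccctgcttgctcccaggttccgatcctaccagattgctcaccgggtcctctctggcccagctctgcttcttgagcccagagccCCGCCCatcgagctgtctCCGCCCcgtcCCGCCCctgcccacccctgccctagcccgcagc
Col23a1, chr11:51289670-51289919, plus strand: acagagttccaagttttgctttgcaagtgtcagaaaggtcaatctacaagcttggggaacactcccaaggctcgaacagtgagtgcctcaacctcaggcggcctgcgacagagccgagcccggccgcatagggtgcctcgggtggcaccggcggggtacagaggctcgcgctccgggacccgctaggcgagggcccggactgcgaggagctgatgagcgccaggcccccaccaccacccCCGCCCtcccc
Col3a1, chr1:45311288-45311537, plus strand: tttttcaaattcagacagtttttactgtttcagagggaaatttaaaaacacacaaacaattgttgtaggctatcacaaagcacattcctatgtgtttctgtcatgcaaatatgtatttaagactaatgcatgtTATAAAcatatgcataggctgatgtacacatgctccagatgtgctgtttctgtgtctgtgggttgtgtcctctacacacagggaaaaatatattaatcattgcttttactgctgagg
Col1a2, chr6:4505368-4505617, plus strand: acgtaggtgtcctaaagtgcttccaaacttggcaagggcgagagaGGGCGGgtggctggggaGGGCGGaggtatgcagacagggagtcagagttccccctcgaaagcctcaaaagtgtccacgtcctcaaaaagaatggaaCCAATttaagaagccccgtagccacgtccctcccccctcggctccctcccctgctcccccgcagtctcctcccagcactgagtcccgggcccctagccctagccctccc

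The upstream window of Col18a1 held 3 GGGCGG matches, the nearest beginning 33 bases before the start, and 1 CCAAT match, while its downstream window held none of the 3 motifs. In the Col23a1 window there was 1 GGGCGG match, 11 bases before the start. The annotated Col23a1 gene begins at chr11:51289679, so most of this window lies inside the gene and its start is not the outermost one. Col3a1 had 1 TATAAA match, 117 bases before its annotated start, and Col1a2 had 1 CCAAT match at 109 bases and 2 GGGCGG matches. Windows were given for 29 of the 38 chains, 31 in all, of which 12 held CCAAT, 5 held TATAAA and 17 held GGGCGG. Over 32851 windows of the same length in the annotation the shares were 33.8%, 12.4% and 32.7%. Chains with no entry were Col1a1, Col2a1, Col4a3, Col5a2, Col9a3, Col12a1, Col14a1, Col22a1 and Col26a1.

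Total expected counts lay between 35583997 and 37327770 per library, and the 38 chains took 0.848% to 1.97% of them. The brown fat gene Ucp1, which encodes the mitochondrial uncoupling protein, stood at 2882 to 10271 CPM (counts scaled to TMM-normalised library sizes), lowest in obesity-prone replicate 3. Over 19676 genes tested, edgeR called 1377 changed between the obesity-prone and control groups at an adjusted p under 0.05, 28 between the obesity-resistant and control groups and 0 between both high-fat groups (3030 at an unadjusted p under 0.05, and after adjustment 0 in limma, and 401 higher and 164 lower in DESeq2). The filter on low counts kept 30 of the 38 chains: 9 fibrillar, 7 basement membrane and 14 other. Col2a1, Col4a6, Col9a1, Col9a2, Col22a1, Col24a1, Col25a1 and Col26a1 fell under it, with 1 to 38 counts each over all 10 libraries, so that no change in them was detectable at this depth.

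Levels were compared between chains as FPKM, which is per transcript length. After Col19a1, described next, the highest mean levels were those of Col4a1 (144 FPKM) and Col4a2 (101 FPKM), the chains of the collagen IV network found in nearly every basement membrane. Col3a1 followed at 64.6 FPKM, then the collagen I chains Col1a1 at 37.3 and Col1a2 at 32.2 FPKM. Next came Col27a1, a fibrillar chain best known from cartilage, at 30.2 FPKM. Its count and FPKM imply a length of 4603 bases, 60.5% of its coding transcript of 7612 bases, so its FPKM is higher than that transcript length would give and its place among the neighbouring chains is uncertain. After it came Col5a3 at 19.9, Col15a1 at 17.0 and Col5a1 at 10.2 FPKM. The tissue thus held more message per length for collagen IV than for any fibrillar chain in the means over the 10 libraries. Fibrillar chains summed to between 0.448 and 1.13 times the basement membrane sum in FPKM, and this ratio was lower in each obesity-resistant library than in any control or obesity-prone library, a pattern chosen after its values were seen and not tested.

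**Figure D1:**
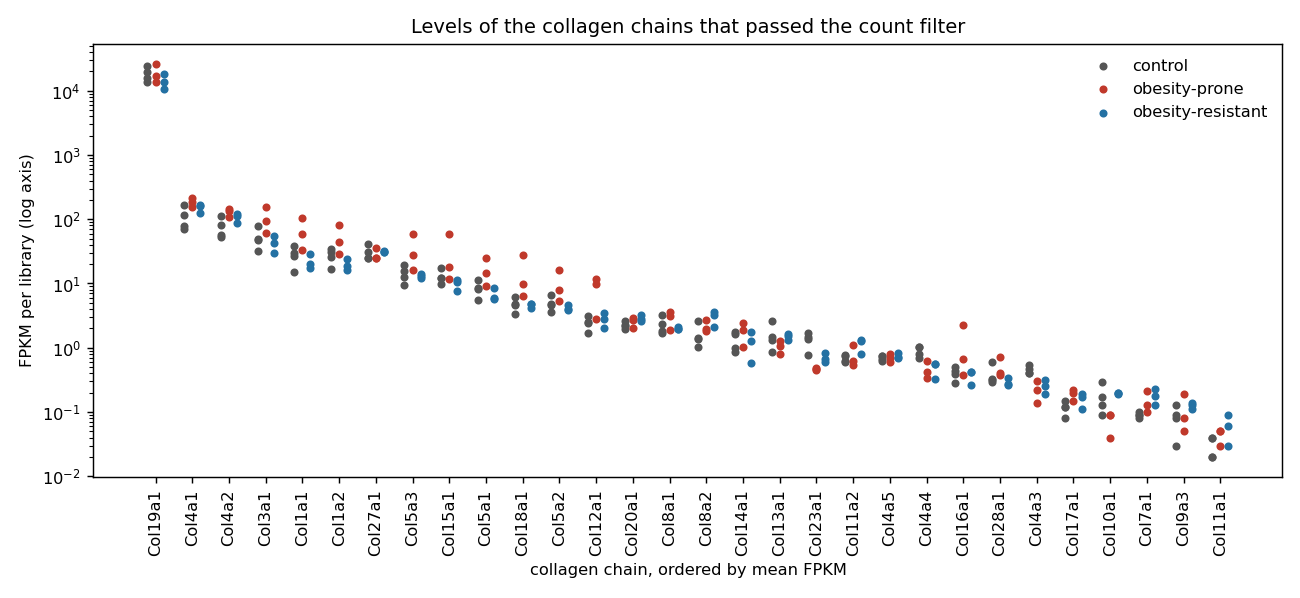
FPKM of each of the 30 collagen chains that passed the count filter (log axis), ordered by the mean over the 10 libraries; each point is 1 library, coloured by group. Col19a1, whose row implies a length far under its coding transcript, stands far above the next chain, Col4a1, and the collagen IV chains Col4a1 and Col4a2 lie above every fibrillar chain in their means.

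The row of Col19a1, a FACIT chain, was not on the scale of the others. It held 0.573% to 1.40% of all counts in a library, against 0.159% to 0.566% for the other 37 chains together, and its mean was 17284 FPKM. The length that a count and an FPKM value imply together was 532 bases (530 to 539 over the libraries), which is 12.5% of its longest annotated coding transcript of 4266 bases, and its shortest coding transcript has 3336 bases. RefSeq places a small nucleolar RNA, Gm26418, inside the gene, which lies at chr1:24257683-24587922. The level of full-length collagen XIX message cannot be read from this row, and why the row is so high was not tested. Its values were 8681, 13509, 7715 and 10138 CPM in the control libraries, 8696, 7288 and 13433 CPM in the obesity-prone and 5818, 9295 and 7238 CPM in the obesity-resistant libraries. The 3 groups overlapped, and no comparison called it (adjusted p = 0.957, 0.462 and 0.537 for prone against control, resistant against control and prone against resistant).

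Implied lengths were within 25% of the longest coding transcript for 22 of the 29 chains where they could be computed. Col8a2, a chain of the short-chain network collagen VIII, implied 279 bases against 4332, and a transcript of 343 bases is annotated for it. Col20a1, a FACIT chain, implied 10276 bases against 5012. The FPKM of these 3 rows, which the plot of levels includes, cannot be compared with those of the other chains. Col17a1 (7453 bases against 5588) and Col11a2 (4244 against 6048) also lay outside the 25% band, so their place in that plot is uncertain. Col23a1, which is named below, implied 3552 bases (2920 to 4573 over the libraries), 62.8% of its longest coding transcript.

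**Figure D2:**
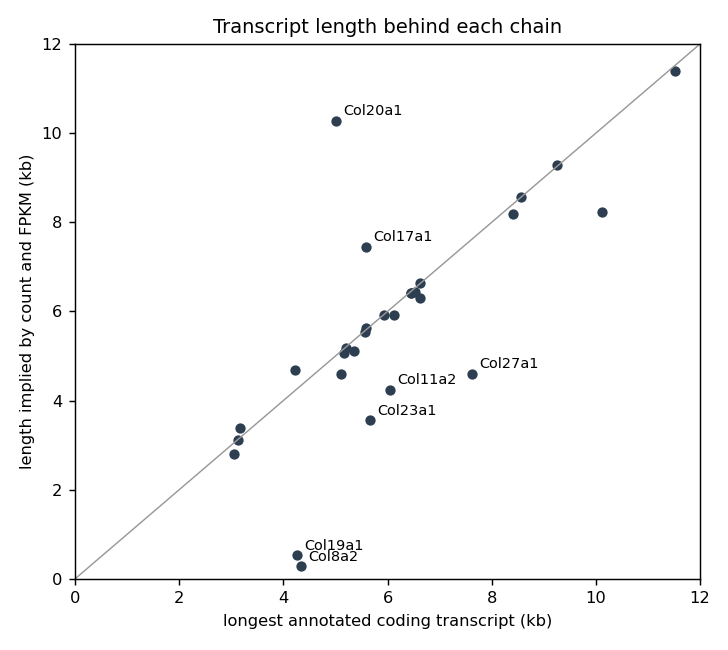
Length implied by count and FPKM (kb, median over libraries) against the longest annotated coding transcript (kb) for 29 collagen chains; the line marks equality. Most chains lie on the line, while Col19a1 and Col8a2 lie near the bottom and Col20a1 and Col17a1 above it.

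The obesity-prone group was compared with the control group first, the contrast of animals labelled obesity-prone on the high-fat diet with chow. In edgeR, 4 of the 30 chains passed: Col12a1 and Col18a1 rose, and Col23a1 and Col4a3 fell. Of all genes tested, 7.00% were called (3.71% higher and 3.29% lower). The median log2 fold change of the 30 chains was 0.50, with 22 above 0, against a median of 0.00466 and 50.6% above 0 over all genes tested. The median of each class was smaller without obesity-prone replicate 3, as given below. At an unadjusted p under 0.05, 13 chains were higher and 4 lower, against 14.9% and 13.2% of all genes. In bulk tissue, more cells of a type and more RNA per cell cannot be told apart.

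The calls depended on the tool and on single libraries. DESeq2 called 12 chains higher and 3 lower, limma on log2 FPKM values called Col23a1 alone, and a fit of only the 2 groups called 0 (edgeR). Over all 19676 genes, DESeq2 called 1678 higher and 1460 lower, limma (pseudocount 0.5) 649 and 377, and the 2-group fit 37 and 12. Without control replicate 1, 2 or 3 the count of chains was 0, without control replicate 4 it was 8, without obesity-prone replicate 2 it was 11, without obesity-prone replicate 3 it was 3 (all lower), and without obesity-prone replicate 1 or obesity-resistant replicate 1, 2 or 3 it was 1 or 2. Calls over all genes, 730 higher and 647 lower in the main fit, moved in the same direction. Without control replicate 1, 2 or 3 they were 145, 135 and 48 higher and 111, 106 and 28 lower. Without control replicate 4 they were 1674 and 1360, without obesity-prone replicate 2 1388 and 810, and without obesity-prone replicate 3 318 and 221.

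Col23a1, a transmembrane collagen, had the lowest p of the 30 chains. It stood at 5.70, 5.65, 5.16 and 2.68 CPM in the control libraries and at 1.75, 1.41 and 1.97 CPM in the obesity-prone libraries. The obesity-resistant libraries held 2.14, 2.26 and 2.60 CPM. In CPM every library from the high-fat diet lay below every control library, narrowly so for control replicate 4, the lowest control. On the authors' FPKM scale the controls held 1.69, 1.45, 1.35 and 0.78, the obesity-prone libraries 0.47, 0.48 and 0.45 and the obesity-resistant libraries 0.66, 0.60 and 0.83 FPKM, so that obesity-resistant replicate 3 lay above control replicate 4 and only the obesity-prone group stayed below all controls. The CPM means were 4.80 ± 1.43 CPM (SD, n = 4), 1.71 ± 0.282 CPM (SD, n = 3) and 2.33 ± 0.242 CPM (SD, n = 3). The log2 fold change against control was -1.48 ± 0.26 (SE) in the obesity-prone group (edgeR adjusted p = 0.0194), or 0.358 times the control level. In the obesity-resistant group it was -1.04 ± 0.26, which did not pass (adjusted p = 0.0997), and the difference between both high-fat groups did not pass either (-0.44 ± 0.28, adjusted p = 0.456). The fall in the obesity-prone group was called in 17 of 21 alternatives (other tools, scalings, filters and fits, and left-out libraries).

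Col12a1, a FACIT chain that links fibrils to the surrounding matrix, stood at 34.2, 28.9, 20.3 and 27.2 CPM in the control libraries. The obesity-prone libraries held 109, 32.6 and 123 CPM and the obesity-resistant libraries 23.7, 37.9 and 31.1 CPM. Obesity-prone replicates 1 and 3 lay far above all other libraries, while replicate 2 lay between the controls, so that the groups overlapped. The log2 fold change of the obesity-prone group was 1.68 ± 0.38 (SE, edgeR adjusted p = 0.0331), or 3.20 times the control level, and it was called in 7 of 21 alternatives.

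Col18a1, the heparan sulfate proteoglycan collagen of basement membranes from which endostatin is cut, stood at 27.0, 28.0, 21.2 and 33.4 CPM in the control libraries. It reached 57.5, 36.1 and 157 CPM in the obesity-prone libraries and 22.8, 26.2 and 26.3 CPM in the obesity-resistant libraries. All 3 obesity-prone libraries lay above all others, with replicate 3 far above its own group. Of all genes tested, 9.66% were likewise higher without overlap in CPM in the obesity-prone group and 10.6% lower, and of the 30 chains 2 were higher (Col18a1 and Col17a1) and 4 lower (Col23a1, Col4a3, Col4a4 and Col10a1). In FPKM, Col17a1 and Col10a1 tied with a control library. The log2 fold change of Col18a1 was 1.61 ± 0.40 (SE, edgeR adjusted p = 0.0434), or 3.06 times the control level. Without obesity-prone replicate 3 it was 0.77 and no longer called, and the rise was called in 7 of 21 alternatives.

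Col4a3, a chain of the specialised collagen IV network best known from the kidney glomerulus, stood at 3.52, 3.59, 4.82 and 3.83 CPM in the control libraries. The obesity-prone libraries held 1.13, 1.90 and 2.47 CPM and the obesity-resistant libraries 2.78, 1.56 and 2.14 CPM. Every high-fat library lay below every control library, in CPM and in FPKM. Its log2 fold change was -1.10 ± 0.28 (SE, edgeR adjusted p = 0.0455) in the obesity-prone group, called in 8 of 21 alternatives, and -0.87 ± 0.28 in the obesity-resistant group, which did not pass (adjusted p = 0.152).

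Col4a4, its partner chain in that network, is described because the 2 genes overlap by 114 bases on chromosome 1 (Col4a4 at chr1:82448419-82587034, Col4a3 at chr1:82586921-82722059, GRCm38.p6), a choice made after its values were seen. It stood at 5.98, 6.87, 7.55 and 6.72 CPM in the control, 2.76, 3.45 and 5.24 CPM in the obesity-prone and 4.53, 3.36 and 2.91 CPM in the obesity-resistant libraries. As for Col4a3, no high-fat library reached a control library on either scale. Its log2 fold changes were -0.83 ± 0.23 (adjusted p = 0.0545) and -0.91 ± 0.23 (adjusted p = 0.0997) in the obesity-prone and obesity-resistant groups, and neither passed in edgeR. DESeq2 called Col4a3, Col4a4 and Col23a1 lower in both groups. Both comparisons use the same 4 control libraries. Of all genes tested, 10.6% were lower without overlap in CPM in the obesity-prone and 9.71% in the obesity-resistant group against control. The share lower in both was not computed. Col4a5, which completes the network, lay between 3.26 and 5.19 CPM in all 10 libraries, with a log2 fold change of -0.098 in the obesity-prone group (adjusted p = 0.752).

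**Figure D3:**
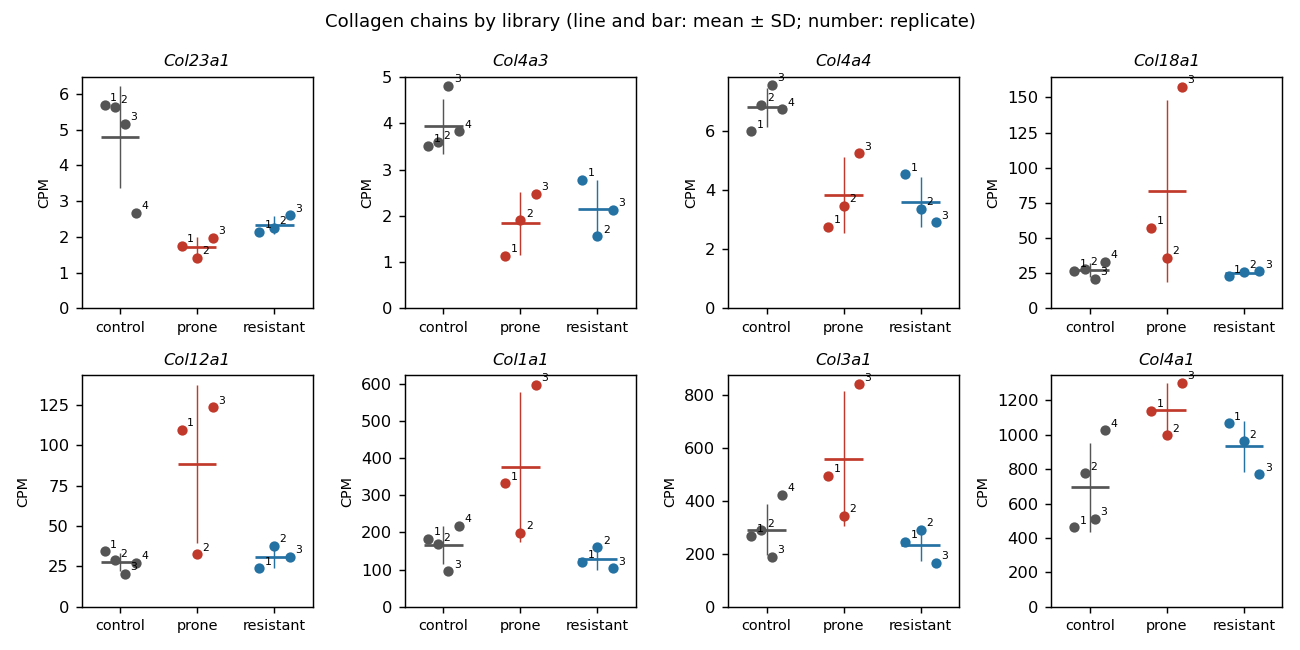
CPM of 8 collagen chains in each library (points, numbered by replicate) with the mean (horizontal line) and SD (vertical line) of the control, obesity-prone and obesity-resistant groups; the vertical axes include 0. Col4a3 and Col4a4 are lower in all high-fat libraries than in any control, as is Col23a1 in CPM but not in FPKM, and obesity-prone replicate 3 is the highest library for Col18a1, Col12a1, Col1a1, Col3a1 and Col4a1.

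The main chains of the basement membrane, Col4a1 and Col4a2, lie next to each other and overlap by 85 bases on chromosome 8 (Col4a1 at chr8:11198423-11312889, Col4a2 at chr8:11312805-11449287). Col4a1 stood at 461, 775, 513 and 1025 CPM in the control libraries, 1140.3, 996 and 1301 CPM in the obesity-prone and 1065, 961 and 770.1 CPM in the obesity-resistant libraries. Col4a2 stood at 343, 555, 381 and 713, at 835, 709 and 877 and at 794, 680.3 and 557 CPM in the same order. The 2 chains kept a ratio of 1.35 to 1.48 (Col4a1 to Col4a2, FPKM) in all 10 libraries, and control replicate 4 lay among the high-fat libraries. Their log2 fold changes in the obesity-prone group, 0.72 ± 0.26 (adjusted p = 0.106) and 0.70 ± 0.24 (adjusted p = 0.097), did not pass, and without control replicate 4 both were called (adjusted p = 0.0216 and 0.0213). Endothelial markers, summed over 11 genes (Pecam1, Cdh5, Kdr and others), lay at 878 to 1514 CPM in the control, 1392 to 1573 CPM in the obesity-prone and 1219 to 1539 CPM in the obesity-resistant libraries, with control replicate 4 again highest among the controls. None of the 11 was called in edgeR (5 were higher at an unadjusted p under 0.05), and their part in the collagen IV levels was not tested.

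Col15a1, a basement membrane proteoglycan collagen related to Col18a1, stood at 63.7, 65.1, 54.0 and 85.5 CPM in the control, 88.0, 60.7 and 290.2 CPM in the obesity-prone and 54.5, 54.2 and 38.8 CPM in the obesity-resistant libraries. A single library, obesity-prone replicate 3, stood apart. The log2 fold change in the obesity-prone group was 1.13 ± 0.44 (adjusted p = 0.133), and 0.15 without that library. Over the 7 basement membrane chains tested the median was 0.70, with 1 called higher and 1 lower. Without obesity-prone replicate 3 that median was 0.15, with 0 called higher and 2 lower.

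Of the 9 fibrillar chains tested, edgeR called 0 in the obesity-prone group. The log2 fold change was above 0 for 8 of them with a median of 0.88, and 6 were higher at an unadjusted p under 0.05, the same 6 that DESeq2 called. These were Col1a1, Col1a2, Col3a1, Col5a1, Col5a2 and Col5a3, the chains of collagens I, III and V, with adjusted p between 0.0672 and 0.116 in edgeR. Leaving out obesity-prone replicate 2 brought all 6 past the threshold, leaving out control replicate 4 brought 2 (Col1a1 and Col3a1), and without obesity-prone replicate 3 the median of the 9 was 0.44, with 0 called.

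Col1a1 stood at 182, 168, 95.6 and 218 CPM in the control, 332, 199 and 597 CPM in the obesity-prone and 120.3, 160.4 and 104 CPM in the obesity-resistant libraries. Its partner Col1a2 stood at 164, 139, 92.2 and 172 CPM, 219, 146 and 398 CPM and 98.3, 119 and 83.2 CPM in the same order. Col3a1, the chain of collagen III, stood at 268, 288, 187 and 421 CPM, 493, 343 and 838 CPM and 244, 291 and 167 CPM. All 3 chains had their highest value in obesity-prone replicate 3, and obesity-prone replicate 2 lay within the control range. The log2 fold changes in the obesity-prone group were 1.18 ± 0.36 for Col1a1, 0.84 ± 0.31 for Col1a2 and 0.94 ± 0.33 for Col3a1 (adjusted p = 0.0695, 0.116 and 0.103).

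Collagen V nucleates collagen I fibrils. Its chain Col5a1 stood at 69.8, 72.6, 47.7 and 89.3 CPM in the control, 114, 75.3 and 196 CPM in the obesity-prone and 48.0, 65.5 and 48.5 CPM in the obesity-resistant libraries. Col5a3 stood at 77.9, 97.8, 60.8 and 113 CPM, 160.4, 96.7 and 337 CPM and 77.2, 77.5 and 70.2 CPM in the same order. Both showed the order of collagen I, with replicate 3 highest and replicate 2 inside the control range. The log2 fold changes were 0.88 ± 0.30 and 1.18 ± 0.35 (adjusted p = 0.092 and 0.0672). Col27a1, the other fibrillar chain among the highest levels, stood at 116, 151, 122 and 189 CPM in the control, 175, 119 and 119.5 CPM in the obesity-prone and 146, 135 and 139 CPM in the obesity-resistant libraries. Its groups overlapped throughout, and its log2 fold change was -0.072 ± 0.19 in the obesity-prone group (adjusted p = 0.833). The 2 chains of collagen XI that were tested, Col11a1 and Col11a2, reached at most 0.576 and 5.45 CPM.

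**Figure D4:**
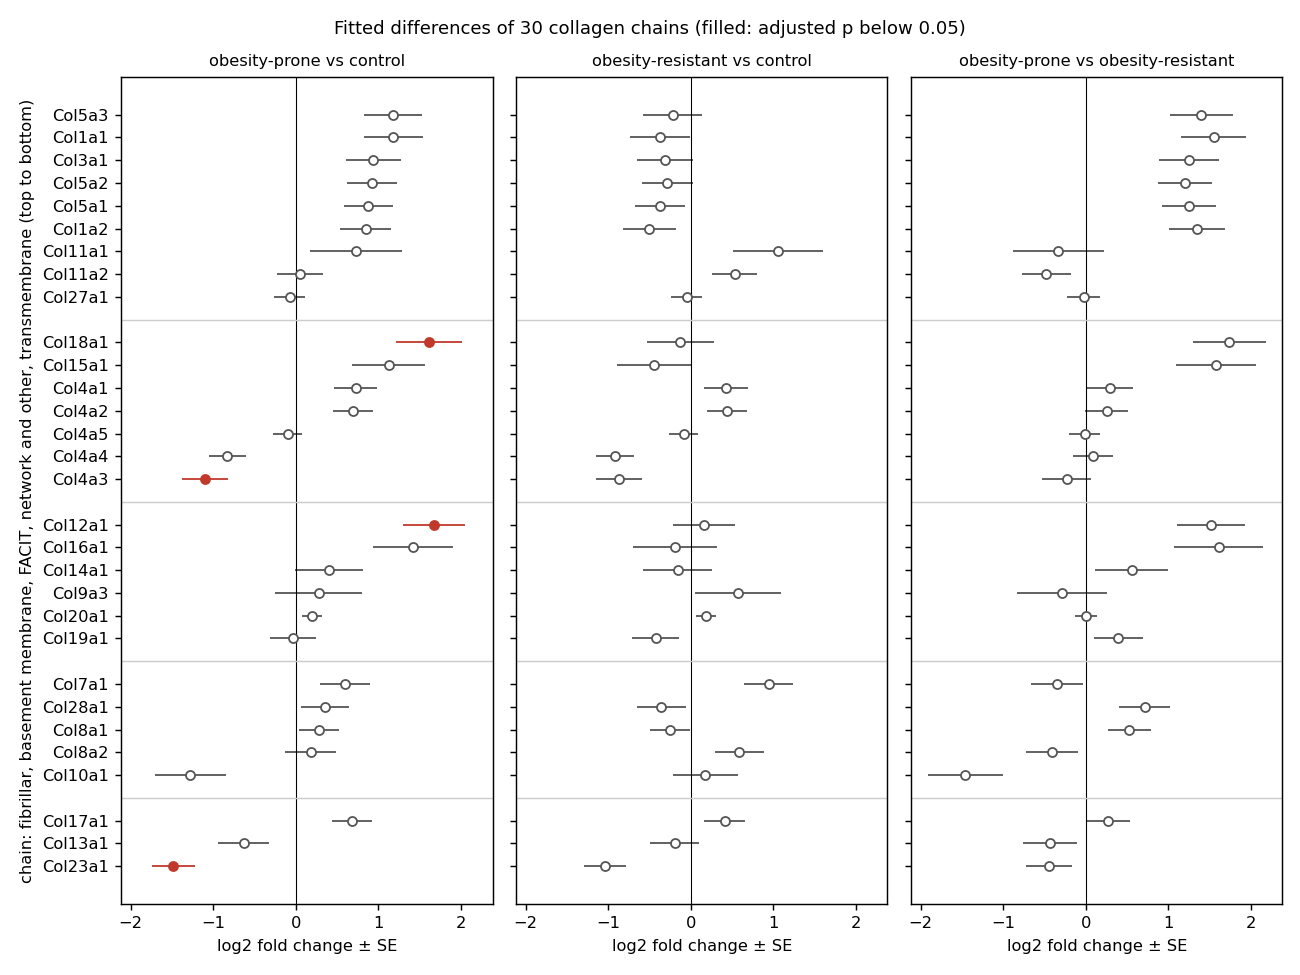
Log2 fold change with SE of the 30 collagen chains tested, in 5 blocks from top to bottom (fibrillar, basement membrane, FACIT, network and other, transmembrane), for the 3 comparisons; filled red points have an adjusted p below 0.05 in edgeR. Filled points occur only in the obesity-prone against control panel (Col18a1, Col4a3, Col12a1 and Col23a1), and the 6 chains of collagens I, III and V lie right of 0 against both other groups.

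The same libraries were the highest and lowest for many chains. Obesity-prone replicate 3 had the highest CPM of all 10 libraries in 16 of the 30 chains, and in 6 of the 9 fibrillar chains. Among the obesity-prone libraries, replicate 2 was the lowest in 19 of 30 chains, and among the controls, replicate 4 was the highest in 14. The summed fibrillar chains reached 635 to 1249 CPM in the control, 1020 to 2592 CPM in the obesity-prone and 640.1 to 882 CPM in the obesity-resistant libraries.

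Marker genes of other cell types were summed in the same libraries, with calls counted between obesity-prone and control (edgeR). Of all genes tested, 3.71% were called higher and 3.29% lower there, and 14.9% and 13.2% had an unadjusted p under 0.05. Fibroblast and progenitor markers (12 genes, Pdgfra, Pi16 and others) summed to 983 to 1446 CPM in the control, 1094 to 2713 CPM in the obesity-prone and 739 to 903 CPM in the obesity-resistant libraries, and only obesity-prone replicate 3 lay above the control range. Of these 12, Ly6a rose and 0 fell, with 3 higher and 1 lower at an unadjusted p under 0.05. Macrophage markers (12 genes, Adgre1, Cd68 and others) summed to 139 to 249.5 CPM, 205 to 591 CPM and 141 to 173 CPM in the same order, and 2 of 12 rose, Lyz2 and Tyrobp. All 12 had a log2 fold change above 0 (median 1.15), and 11 were higher at an unadjusted p under 0.05. The sum in obesity-prone replicate 2, 205 CPM, lay inside the control range. Without overlap between the groups in CPM, 0 of the 12 were higher, against 9.66% of all genes. Brown adipocyte markers (11 genes, Ucp1, Cidea and others) summed to 14017 to 17215 CPM, 7539 to 14746 CPM and 15246 to 16279 CPM, lowest in obesity-prone replicate 3, and 1 of 11, Fabp4, fell (3 were lower at an unadjusted p under 0.05). None of these marker genes was at 0 in all libraries, and their part in the collagen levels was not tested. Skeletal muscle markers (12 genes, Acta1, Ckm and others, 0 called) ranged from 24.6 to 932 CPM and were highest in control replicate 2 and obesity-resistant replicate 3. All 12 had a log2 fold change below 0 (median -3.24), 1 of them at an unadjusted p under 0.05. Their sums ran from 26.6 to 932 CPM within the controls alone. Against the obesity-resistant group all 12 were also below 0 (median -3.18). The summed markers of mesothelium and epithelium (8 genes, 1 tested and 0 called) lay at 0.795 to 1.57 CPM. Mural cell markers (10 genes) and Schwann cell markers (9 genes) had 0 called, with sums of 789.6 to 1044 CPM and 107 to 167 CPM over the 10 libraries. Of 11 cartilage, bone and tendon markers 4 could be tested, with summed levels of 2.17 to 14.4 CPM, and 1 of them rose in the obesity-prone group. It was Cnmd, from 0.203 to 0.834 CPM, near the floor in the controls (SD 0.0720 CPM). Cnmd passed the count filter only through high-fat libraries, so it could be tested only because of libraries where it is high.

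**Figure D5:**
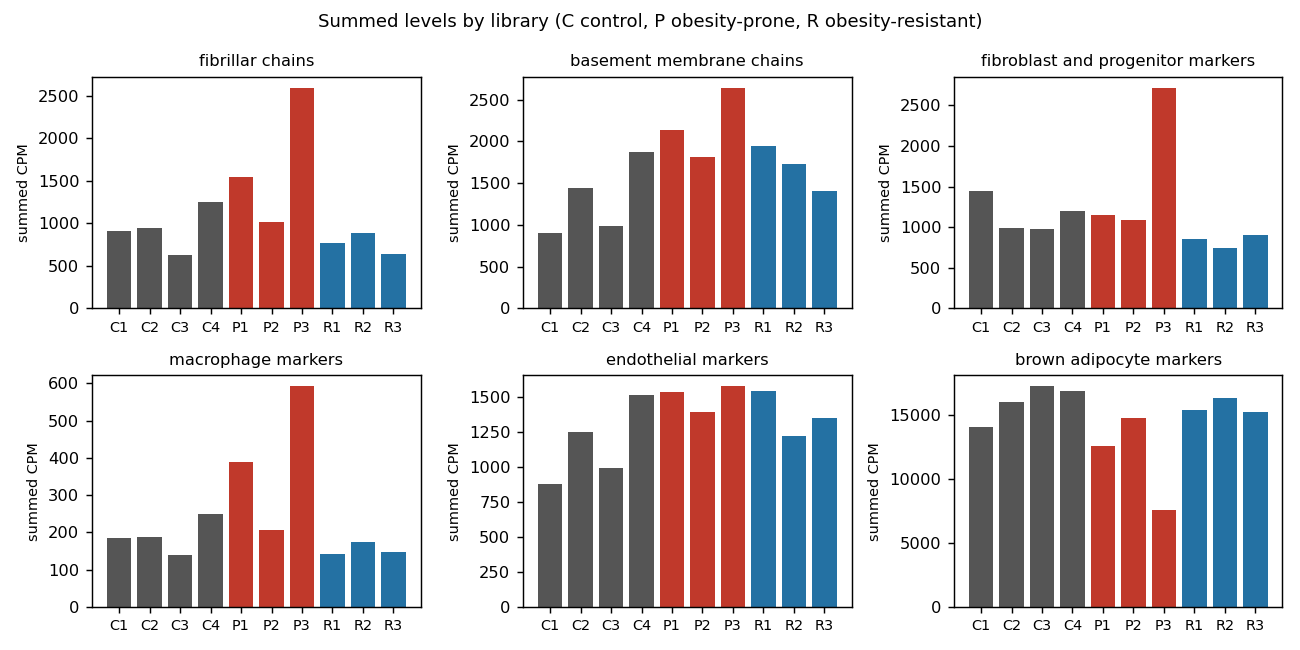
Summed CPM of the fibrillar and basement membrane chains and of 4 marker lists in each library (bars; C control, P obesity-prone, R obesity-resistant, numbered by replicate; axes start at 0). Obesity-prone replicate 3 has the highest bar for fibrillar chains, fibroblast and macrophage markers and the lowest for brown adipocyte markers.

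Among the 14 other collagens tested, the median log2 fold change in the obesity-prone group was 0.28, with Col12a1 called higher and Col23a1 lower. Without obesity-prone replicate 3 that median was 0.12, with 0 called higher and 1 lower. Col10a1, the network collagen of growth-plate cartilage, reached at most 0.941 CPM and had a log2 fold change of -1.28 ± 0.43 (adjusted p = 0.0906). Col16a1, a FACIT chain, held 3.33, 1.99 and 11.4 CPM in the obesity-prone libraries against 2.46, 2.11, 1.54 and 2.22 CPM in the control libraries, so that replicate 3 alone stood apart (1.42 ± 0.49, adjusted p = 0.0953). Both were picked after their values were seen. The remaining chains, among them Col7a1 of anchoring fibrils, Col8a1, Col13a1, Col14a1, Col17a1 and Col28a1, had adjusted p between 0.103 and 0.957.

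The obesity-resistant group was compared with the control group to set the high-fat diet against chow in the animals labelled resistant. No chain of 30 was called in edgeR, where 0.142% of all genes were called (0.0966% higher and 0.0457% lower). At an unadjusted p under 0.05 there was 1 higher chain, Col7a1 (0.94 ± 0.30, adjusted p = 0.147), and 3 lower ones, Col23a1, Col4a4 and Col4a3, against 8.96% and 9.03% of all genes (18.0% in either direction). DESeq2 called 0 higher and 3 lower, limma called 0, and edgeR called Col4a4 with obesity-prone replicate 3 left out and Col23a1 with control replicate 4 left out, 1 chain each. Over all genes, DESeq2 called 559 higher and 579 lower, and limma (pseudocount 0.5) 29 and 7. The 2 edgeR fits called 176 higher and 124 lower, and 408 higher and 448 lower, over all genes. The median log2 fold change of the 30 chains was -0.17, with 11 above 0 (49.1% of all genes), and of the 9 fibrillar chains -0.29. Of the 30 chains, 2 were higher without overlap between the groups in CPM (Col7a1 and Col11a2) and 3 lower (Col23a1, which overlapped in FPKM, Col4a3 and Col4a4), against 10.5% and 9.71% of all genes.

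The 2 high-fat groups were compared directly to ask where prone and resistant mice on one diet differed. In edgeR 0 of 30 chains and 0.00% of all genes were called, while 11 chains were higher in the obesity-prone group and 1 lower at an unadjusted p under 0.05, against 9.78% and 5.62% of all genes (15.4% in either direction). For the 9 fibrillar chains the median of the log2 fold changes here was 1.25, and 6 of them were higher in every obesity-prone library than in any obesity-resistant library. Of the 30 chains, 9 were higher without overlap in CPM and 2 lower, against 9.99% and 9.75% of all genes. The log2 fold change was above 0 for 19 of the 30 chains and for 48.9% of all genes. Col1a1 showed 1.55 ± 0.39 and Col18a1 1.74 ± 0.44 (edgeR adjusted p = 0.23 for both), the lowest p of the chains. Without obesity-prone replicate 3 they were 1.05 and 0.90. DESeq2 called 9 chains higher, the 6 fibrillar chains named above with Col12a1, Col15a1 and Col18a1, limma called 0, and edgeR called 10 higher and 1 lower without obesity-prone replicate 2. Over all genes, DESeq2 called 401 higher and 164 lower, limma 0, and edgeR without that library 671 higher and 214 lower.

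The balance of collagen I to collagen III was followed as the ratio of Col1a1 to Col3a1 in FPKM within a library, where library scaling cancels. It was 0.639, 0.548, 0.479 and 0.485 in the control libraries, 0.631, 0.545 and 0.668 in the obesity-prone and 0.462, 0.518 and 0.583 in the obesity-resistant libraries. The groups overlapped. The mean log2 ratio differed by 0.20 between obesity-prone and control (two-sided exact permutation p = 0.229, adjusted over 3 comparisons 0.343), by -0.04 between obesity-resistant and control (p = 0.771, adjusted 0.771) and by 0.24 between obesity-prone and obesity-resistant (p = 0.2, adjusted 0.343), where 3 against 3 libraries cannot give an exact p under 0.1. The ratio of Col1a1 to Col1a2, chosen after its values were seen and not tested, was 0.895 to 1.10 in the control, 1.18 to 1.31 in the obesity-prone and 1.06 to 1.17 in the obesity-resistant libraries, so that the obesity-prone libraries lay above all others.

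Genes that make, modify and bind collagen were read from lists beside the chains (obesity-prone against control, edgeR). Of 19 tested genes of collagen hydroxylation, folding and secretion, 7 rose and 0 fell, with a median log2 fold change of 0.56. Plod1, a lysyl hydroxylase, went from 73.4 to 123 CPM (0.75 ± 0.09, adjusted p = 0.00924) and P4ha2, a prolyl hydroxylase subunit, from 6.82 to 22.9 CPM (1.75 ± 0.23, adjusted p = 0.00924). Their SD in the obesity-prone group was 11.9 and 8.15 CPM. Plod1 was also the 1 gene of this list called in the obesity-resistant group (0.61 ± 0.09, adjusted p = 0.0463), where 0.142% of all genes were called. There, 5 of the 19 were higher and 2 lower at an unadjusted p under 0.05, against 8.96% and 9.03% of all genes (median -0.057). The summed list lay at 580 to 731 CPM in the control, 969 to 1391 CPM in the obesity-prone and 934 to 1102 CPM in the obesity-resistant libraries. Of 13 genes of propeptide removal and crosslinking, 3 rose and 0 fell (median 0.51). Among them, the lysyl oxidase Lox went from 24.4 to 72.5 CPM (1.57 ± 0.31, adjusted p = 0.0233) and Loxl4 from 0.827 to 2.41 CPM. The SD in the obesity-prone group was 39.3 CPM for Lox and 1.05 CPM for Loxl4. The summed list lay at 187 to 241 CPM in the control libraries and at 321, 233 and 486 CPM in the obesity-prone libraries. Obesity-prone replicate 2 thus lay inside the control range.

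Of 20 tested partners of fibrils, 7 rose and 0 fell (median 0.78). Bgn, a small proteoglycan that binds collagen, went from 65.7 to 147 CPM (1.16 ± 0.21, adjusted p = 0.0200), and Comp, a collagen-binding thrombospondin, from 0.0981 to 0.544 CPM. The SD of Bgn in the obesity-prone group was 51.1 CPM. Comp lay near the floor in the controls (SD 0.0159 CPM) and passed the count filter only through high-fat libraries. It is counted among the 7, though it could be tested only because of libraries where it is high. Of 13 basement membrane partners, 2 rose and 1 fell (median 0.04): the laminin chain Lamc1 went from 174 to 264 CPM and the laminin chain Lamb1 from 230.1 to 165 CPM. Of 11 collagen receptors 1 rose, Adgrg1, from 66.3 to 108 CPM, and of 19 collagenases, their inhibitors and other degrading enzymes 1 rose, Timp3, an inhibitor of matrix metalloproteinases, from 159 to 288 CPM. Among 21 genes of TGF-beta signalling and other fibrosis signals 3 rose and 0 fell (median 0.21), with Smad4, the shared mediator of TGF-beta family signals, going from 61.5 to 76.3 CPM. No gene of these lists was called between both high-fat groups, where 0.00% of all genes were called. None but Plod1 was called between obesity-resistant and control, where 0.142% of all genes were. Against 3.71% of all genes called higher between obesity-prone and control, these counts are descriptions of lists that were chosen with earlier results of these data known.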

How the data were processed

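Total RNA of brown adipose tissue was sequenced in 10 libraries. Per the labels' protocols, Bowtie2 2.2.5 mapped the reads onto a transcript collection made by BGI, noncoding RNA included, and RSEM 1.2.12 quantified the genes. HISAT2 2.0.4 and GRCm38.p6 appear in the submitters' processing notes. The strand setting and annotation release are not given in the sources used here, so antisense or overlapping genes, which 22 of the 38 chains have, cannot be told apart from them. The deposited table holds the RSEM expected count per gene and library, not normalised, and the authors' FPKM, which is per transcript length and depth. The authors' group means were not used. Genes without a symbol held 21.0% to 26.2% of counts.

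Expected counts were rounded and fitted with edgeR 4.0.16 in R 4.3.3 (quasi-likelihood, robust, TMM factors, filterByExpr with a minimum count of 10), with 1 coefficient per group over all 10 libraries and 7 residual degrees of freedom. Benjamini-Hochberg adjustment ran over 19676 genes, and an adjusted p under 0.05 was a call. Errors beside log2 fold changes are SE. The code was tested on simulated data. CPM are on TMM library sizes, and totals of 35583997 to 37327770 set the counting precision. Alternatives used DESeq2 1.42.0, limma 3.58.1 on log2(FPKM + pseudocount), other scalings and filters, and left-out libraries. Transcript lengths are from GENCODE M21.

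The members and gene lists were chosen with earlier results of these data known. Described with every library were the chains called in any comparison and the 10 with the highest mean FPKM, and from each other list at most the 2 called genes with the lowest p, of which 1 is not reported here. The lists also covered mural, Schwann, skeletal muscle, cartilage, bone and tendon, and mesothelial and epithelial markers.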

Additional observations from a re-analysis of the deposited data

How the results depend on the processing

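The 4 collagen chains called between the obesity-prone and control groups were the same 4 with RLE factors, upper-quartile factors and the stricter count filter (at least 1 CPM in 3 libraries). The count was 15 with DESeq2, 2 with no filter, 0 with only the 2 groups compared, and 1 with limma at each pseudocount (0.1, 0.5 and 1). It ran from 0 to 11 when each library was left out in turn. Leaving out obesity-prone replicate 3 and control replicate 4 together, an alternative chosen after seeing the data, gave 6 (3 higher, 3 lower). Over all genes, leaving out that pair gave 1372 higher and 1288 lower, and no filter 498 and 434. Between the obesity-resistant and control groups the count of chains was 3 with DESeq2, 1 with only the 2 groups compared, 2 without that pair of libraries and 0 to 1 with each library left out. Over all genes, the 2-group fit called 226 higher and 135 lower there, and the fit without that pair 1011 and 1203. Between both high-fat groups the count of chains was 9 with DESeq2 and 0 to 11 with each library left out. Where an arm was left with 2 libraries, the fit pooled the spread over all groups.

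Deviations of same-numbered libraries of different groups correlated at -0.146 to 0.206, with 5 of 9 below 0, and 5 of 18 matched their own number best. The correlations of control with obesity-resistant libraries were 0.149, 0.121 and 0.187, and of control with obesity-prone libraries -0.0865, -0.104 and -0.146. Those of both high-fat groups were -0.108, -0.0649 and 0.206. So few libraries cannot show whether a number stands for a shared batch or pairing, which the labels do not state. With the replicate number as a block, 1 chain was called between obesity-prone and control (Col23a1), 1 between obesity-resistant and control (Col23a1) and 0 between both high-fat groups, and the log2 fold change of Col27a1 turned to 0.069 in the first and 0.11 in the second comparison. Over all genes, this fit called 822 higher and 760 lower in the first comparison and 188 and 194 in the second.

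Small differences changed sign. Col19a1, obesity-prone against control, was 0.031 in limma at each pseudocount and -0.32 to 0.15 with each library left out. Without the 2 libraries above, Col27a1 was 0.18 in obesity-prone and 0.12 in obesity-resistant against control, and 0.058 between both high-fat groups. In limma it was 0.066, 0.067 and 0.064 in obesity-resistant against control (pseudocounts 0.5, 0.1 and 1). With each library left out it was -0.27 to 0.084, -0.14 to 0.11 and -0.24 to 0.071 in the same 3 comparisons. With each library left out, Col12a1 was -0.014 to 0.32 in obesity-resistant against control, Col4a3 -0.51 to 0.016 in obesity-prone against obesity-resistant, and the log2 ratio of Col1a1 to Col3a1 -0.13 to 0.044 in obesity-resistant against control. The cause was not tested. Depth limits the 8 chains under the count filter and leaves Col23a1, Col4a3 and Col4a4 resting on under 8 CPM.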
